A study of Mus musculus with 2 samples.

Results

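Genes of the mitotic spindle and the kinetochore were examined in mouse lens at 2 ages, postnatal day 7 (P7), when the lens grows fast, and postnatal day 60 (P60), in the young adult. The list held 56 genes that act in chromosome condensation, spindle assembly, kinetochore attachment, the spindle checkpoint, anaphase and cytokinesis, and all 56 had a probe set annotated to their symbol alone, among 18194 genes so represented. Both groups were untreated wild-type C57/BL6 mice, with no transgene or other allele named in the labels, and each age was 1 pool of lenses hybridised to 1 array. No value therefore has a biological or technical replicate, so the ages cannot be tested against each other and differences are given by size alone. The sources used here do not give the number of animals in each pool or their sex.

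In the lens, cell division takes place in the epithelium that covers the front surface, chiefly in a ring near the equator, and cells that leave this ring stop dividing and elongate into fibres. Most of the genes listed here are transcribed in waves that peak in G2 and M phase, so their RNA in a tissue is often read as a sign of how many cells are dividing. In many of them the promoter holds a CHR element, bound by the LIN54 subunit of the DREAM and MuvB complexes, and a box bound by the factor NF-Y. In resting cells DREAM represses these genes, and in dividing cells MuvB with B-Myb and FoxM1 activates them.

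These promoter elements are shown because the members are often described as 1 co-regulated set. The searched letters were TTTGAA for the CHR and CCAAT for the NF-Y box, on both strands, in a window of 250 bases before to 50 bases after each annotated start (RefSeq, GRCm38.p6). Where the words meet they can share at most 1 base, and CCAAT boxes that overlap on opposite strands were counted as 2 matches. The stretches below run from 130 bases before the start to 30 bases after it, 5′ to 3′ on the strand of the gene, and capitals mark every whole match of either word. Cyclin gene Ccnb2, centromere genes Cenpa and Cenpf, Ube2c, Cdk1 and Top2a were 2-fold lower at P60 and hold both words. Mad2l1 was lower as well and holds neither, and Bub3, which holds both, was not lower.
Ccnb2 (chr9:70421525-70421684, minus strand): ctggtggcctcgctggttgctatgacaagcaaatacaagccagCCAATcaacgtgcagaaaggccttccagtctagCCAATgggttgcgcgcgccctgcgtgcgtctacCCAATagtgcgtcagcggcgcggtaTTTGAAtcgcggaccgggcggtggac
Cenpa (chr5:30666756-30666915, plus strand): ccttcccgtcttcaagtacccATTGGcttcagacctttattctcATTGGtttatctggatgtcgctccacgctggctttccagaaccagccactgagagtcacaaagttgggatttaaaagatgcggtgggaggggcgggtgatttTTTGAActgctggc
Cenpf (chr1:189688057-189688216, minus strand): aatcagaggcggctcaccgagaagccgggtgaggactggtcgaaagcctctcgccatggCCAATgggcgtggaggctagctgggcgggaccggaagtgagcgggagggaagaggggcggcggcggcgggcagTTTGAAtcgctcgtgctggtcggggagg
Ube2c (chr2:164769799-164769958, plus strand): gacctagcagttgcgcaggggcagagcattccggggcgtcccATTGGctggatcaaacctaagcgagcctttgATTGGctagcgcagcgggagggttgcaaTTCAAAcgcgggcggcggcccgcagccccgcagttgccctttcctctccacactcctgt
Cdk1 (chr10:69352883-69353042, minus strand): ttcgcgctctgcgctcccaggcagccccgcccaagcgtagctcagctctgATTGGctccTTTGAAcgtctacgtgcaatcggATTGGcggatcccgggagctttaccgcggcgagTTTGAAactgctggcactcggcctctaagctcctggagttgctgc
Top2a (chr11:99024160-99024319, minus strand): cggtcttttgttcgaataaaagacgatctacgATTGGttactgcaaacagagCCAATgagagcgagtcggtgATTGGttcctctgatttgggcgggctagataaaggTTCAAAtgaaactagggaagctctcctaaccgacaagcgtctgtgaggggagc
Mad2l1 (chr6:66535091-66535250, plus strand): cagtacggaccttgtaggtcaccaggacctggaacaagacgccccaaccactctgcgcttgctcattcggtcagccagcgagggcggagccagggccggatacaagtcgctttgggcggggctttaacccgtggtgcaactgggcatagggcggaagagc
Bub3 (chr7:131560240-131560399, plus strand): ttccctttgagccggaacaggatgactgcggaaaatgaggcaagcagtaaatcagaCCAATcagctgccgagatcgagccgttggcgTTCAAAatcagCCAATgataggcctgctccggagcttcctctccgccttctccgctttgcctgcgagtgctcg

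Entries were found for 49 of the 56 genes, in 54 promoters, because Cenpk, Prc1, Bub3 and Ect2 have more than 1 annotated start; Ccna2, Tpx2, Cdca2, Smc4, Kif20a, Dlgap5 and Aurkb had none. The CHR letters were present in 38 of these 54 promoters (70.4%), beside 17.9% of all 32851 promoters of the same length. The NF-Y letters were present in 39 of 54 (72.2%), beside 37.4% of all promoters, and both words in 32 (59.3%), beside 6.95%. By position, 34 member promoters (63.0%) had a CHR match within 50 bases of the start on either side, beside 4.94% of all promoters. The NF-Y share within 50 bases was not counted. NF-Y matches of members were most frequent from 75 to 50 bases before the start (16 matches), as in the other promoters. The next 2 bins of 25 bases, up to the start, held 11 and 14. In Ccnb2 the 3 NF-Y boxes began at positions -87, -54 and -21 and the CHR matches at positions -167 and 5, counting the start as position 1 with no position 0. In Cdk1 the NF-Y boxes began at -208, -80 and -48 and the CHR matches at -71 and -15. Neighbouring NF-Y boxes whose first bases lay 30 to 36 bases apart, a range chosen after the positions were seen, occurred in 9 member promoters (16.7%) and in 1.77% of the others. A match is a description of the letters, and windows of a gene with several starts can hold the same match, as in Bub3.

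**Figure D1:**
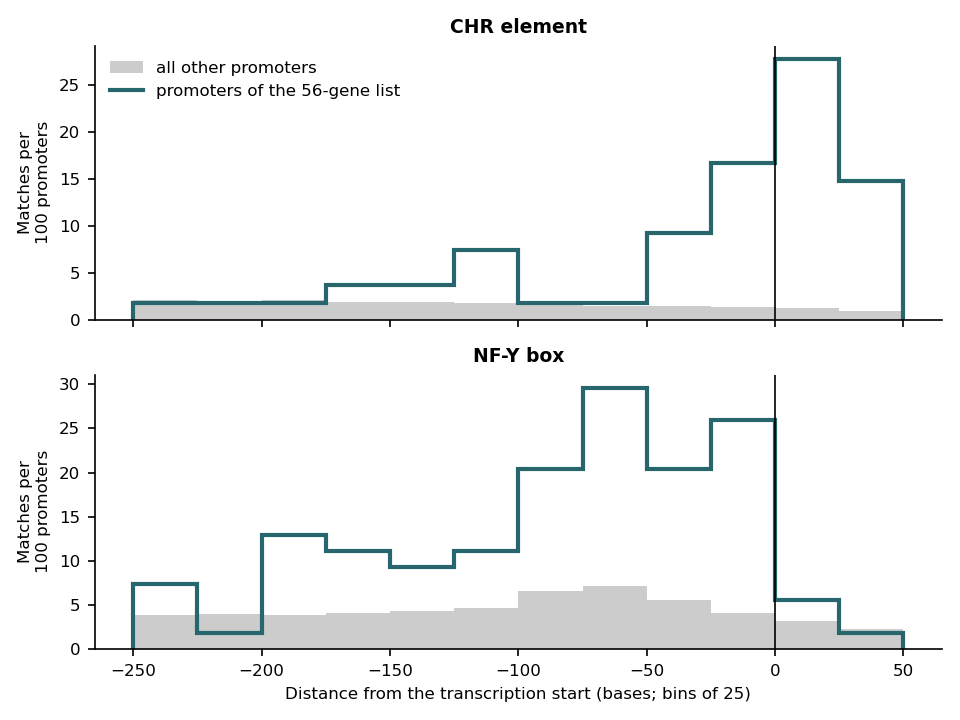
Matches of the CHR element (top) and the NF-Y box (bottom) per 100 promoters, in bins of 25 bases by distance from the annotated transcription start; lines are the 54 promoters of the mitotic list and filled areas the other promoters. CHR matches of the list reach 27.8 per 100 promoters in the first 25 bases after the start, beside 1.27 in the other promoters, and NF-Y matches reach 29.6 from 75 to 50 bases before it, beside 7.16.

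Lower members and the others were then set side by side, with no test of the difference and only for genes whose signal could be read at both ages, a limit chosen after seeing the data. The CHR letters were found in 12 of 20 promoters (60.0%) of the members that were 2-fold lower at P60 and in 15 of 18 (83.3%) of those within 2-fold. For the NF-Y letters the counts were 15 of 20 (75%) and 13 of 18 (72.2%), and for 2 or more NF-Y boxes 11 of 20 (55.0%) and 8 of 18 (44.4%). In the promoters of 99 other mitotic genes, which are described further on, the CHR letters were present in 34 of 120 (28.3%) and the NF-Y letters in 63 of 120 (52.5%).

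The values are array signal intensities on a linear scale. A floor of 104, the median over the 2 arrays together, was used as the level below which a signal was not read, and values under it were raised to it before the log2 ratio of P60 over P7 was taken, so that the fold for such a gene is only a bound, written as at least that many-fold. A gene was counted as lower or higher from 2-fold on. Probe sets of the same gene, over 4239 genes with 2 or more above the floor on both arrays, differed in this ratio with an SD of 0.58, and for the 25 mitotic genes with 2 or more measured the SD was 0.72. This spread covers probe sets on the same arrays and not differences between animals or pools. The arrays had medians of 113 at P7 and 93.9 at P60 and equal trimmed means. Genes that define lens fibres were bright at both ages, with a median log2 ratio of -0.06 over 8 measured markers, among them Cryaa, Mip and Bfsp1. The ratio of 5′ to 3′ signal was lower at P60 for each of 4 control transcripts, for example beta-actin with 0.785 and 0.606 and the dap spike-in, which is not lens RNA, with 0.0995 and 0.0262. Its part in the lower mitotic signals at P60 was not tested.

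Mitotic genes were lower in the adult lens. With neither floor nor filter, 34 of the 56 genes (60.7%) showed 2-fold less signal at P60 or lower still and 1 was 2-fold higher, Dlgap5, which lay under the floor at both ages. Among all 18194 genes treated in this way 20.3% were lower. Of the 56, 37 were above the floor on both arrays, 15 at P7 only, none at P60 only, and 4 on neither. The shares at P7 only and at P60 only were not counted over all genes. Of all probe sets 52.2% were above the floor at P7 and 47.8% at P60. Among the 37, 19 (51.4%) were lower and none higher, with a median log2 ratio of -1.04, beside 8.38% lower and a median of 0.07 among the 10599 genes that passed on both. The 15 genes above the floor at P7 only could differ in no other direction, and 5 of them reached 2-fold on the floored values while the bounds of 10 did not. Without the floor 9 of these 10 would pass 2-fold, so they are not shown to lie within it.

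The 52 genes above the floor on at least 1 array include those 15, so this count is a description. Of the 52, 24 (46.2%) were lower and none was 2-fold higher, where 9.44% of all 13029 measured genes were lower and 11.5% higher. The median log2 ratio was -0.96 and the quartiles were -1.51 and -0.56, beside a median of 0.02 and quartiles of -0.46 and 0.53 for all measured genes. A ratio below 0 was seen in 47 of 52 (90.4%), against 48.8% of all measured genes. The count was also set beside genes of like signal, limited, after seeing the data, to genes above the floor on both arrays. In the range of mean intensity from 234 to 498, between the quartiles of the 37 mitotic genes, 15 of 19 were lower, beside 10.3% of 2439 genes. Over all 37, inside and outside this range, 19 (51.4%) were lower. Without that limit, which lets in genes above the floor at P7 only, the range was 177 to 401. There 15 of 26 were lower, and the share of all genes was not counted. Fewer dividing cells and less of these RNAs per cell cannot be told apart in pooled tissue.

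**Figure D2:**
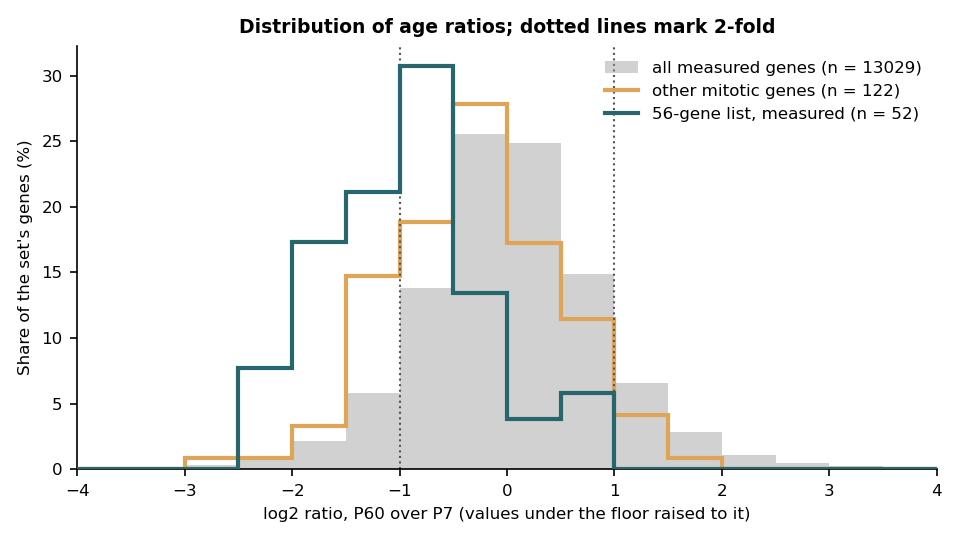
Share of genes in each bin of 0.5 of the log2 ratio of P60 over P7, for 13029 measured genes (filled), 122 other mitotic genes (orange line) and the 52 measured genes of the mitotic list (dark line), with 1 array per age. The list is centred near its median of -0.96 and none of its genes passes 2-fold on the higher side.

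Both general markers of cycling cells were lower at P60. Mki67, which encodes the proliferation antigen Ki-67 that coats mitotic chromosomes, read 773 at P7 and 194 at P60, 3.99-fold lower. Top2a, the topoisomerase that untangles sister chromatids, read 1310 and 453 and was 2.89-fold lower. A dim Top2a probe set read 114 and 10.6, the latter under the floor.

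Of the 7 cyclins and kinases of mitotic entry, 5 were 2-fold lower and every one was on the lower side. Ccnb2, a B-type cyclin that partners CDK1, read 559 at P7 and 99.9 at P60, which is just under the floor, so at least 5.38-fold lower. Cdk1, the kinase that drives entry into mitosis, read 716 and 184 (3.89-fold lower). Ccna2, the A-type cyclin of S phase and G2, read 811 and 389 on the chosen probe set (2.08-fold lower), and its other probe set, at 563 and 141 was lower by more. Ccnb2 and Cdk1 had 1 measured probe set each, and that of Ccnb2, above the floor at P7 only, could lie only on the lower side. Aurka, the kinase of spindle poles, read 546 and 254 (2.15-fold lower). Nek2, which acts in centrosome separation, read 316 and 147 (2.15-fold lower), but its probe sets disagreed, with ratios of -1.10, -0.51 and 1.23. The other 2 kinases did not reach 2-fold. Plk1, the polo-like kinase needed from mitotic entry to exit, read 253 and 207 (log2 ratio -0.29). Melk, a kinase abundant in proliferating cells, read 182 and 81.7, with a bound of 1.75-fold. It too was above the floor at P7 only and could lie only on the lower side.

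Spindle checkpoint genes, which delay anaphase until chromosomes are attached, split. Mad2l1, which encodes the MAD2 protein that holds back CDC20, read 1044 and 190 and was 5.50-fold lower, the largest fold among the 37 genes above the floor on both arrays. Trip13, the ATPase that takes MAD2 out of its active form, read 460 and 134 (3.44-fold lower). Bub1 (201 and 37.2) and the kinase gene Ttk (156 and 75.7), which encodes MPS1, were under the floor at P60 with log2 ratios of at most -0.95 and -0.59. Bub1b, encoding BUBR1, read 272 and 170 with a ratio of -0.68 and its other probe set at -0.08. Bub3, the partner of BUB1 and BUBR1, was not lower: it read 3435 and 3800 with a ratio of 0.15, and its other probe set, at 254 and 570, had 1.17. Bub3 was the checkpoint gene with every measured probe set above 0.

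The chromosomal passenger complex, which corrects faulty attachments and later steers cytokinesis, had a ratio below 0 in each of its 3 listed subunits, with 1 of them 2-fold lower. Birc5, encoding survivin, read 679 and 219 (3.10-fold lower). Cdca8, encoding borealin, read 1020 and 639, with ratios from -1.53 to -0.28 over 3 probe sets. Aurkb, its kinase, lay near the floor with 154 at P7 and 62.2 at P60, at least 1.49-fold lower. Being above the floor at P7 only, Aurkb could lie only on the lower side.

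Centromere and kinetochore genes had a median log2 ratio of -1.45 over 7 measured genes of 8, of which 4 were 2-fold lower. Cenpa, the histone H3 variant that marks centromeres, read 488 and then 83.5, which is under the floor, so at least 4.70-fold lower. Spc25, a subunit of the NDC80 complex that grips microtubules, read 1229 and 326 (3.77-fold lower). Nuf2, of the same complex, read 429 and 223 with a ratio of -0.94, short of 2-fold. Ndc80 itself was under the floor on both arrays (102.96 and 5.36), so the complex was seen through 2 of its listed subunits. Cenpf, a large protein of the outer kinetochore, read 493 and 174 (2.83-fold lower), with its dimmer probe sets at -0.79 and -0.08. Cenpk, of the inner kinetochore network, read 613 and 224 (2.73-fold lower). Cenpe, a kinetochore motor (160 and 85.5), and Cenph (122 and 11.4), a partner of Cenpk in that network, were under the floor at P60 with bounds of 1.54-fold and 1.17-fold.

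Mitotic kinesins, the motors that slide and trim spindle microtubules, reached 2-fold in 1 of 8 (median -0.40), beside 9.44% of all measured genes. This count rests on the floor, since 5 of the 8 were 2-fold lower with a floor of 52.0. Kif11, encoding the motor Eg5 that pushes spindle poles apart, read 406 and 99.8, the latter under the floor, and was at least 3.91-fold lower. Kif4, which shortens microtubules of the central spindle, read 272 and 149 (ratio -0.86). For 4 kinesins the P7 signal was near the floor, so that the bound could not be large: Kif23 of centralspindlin (149 and 62.3), Kif20b (144 and 54.1), Kif15, a bipolar spindle motor (130 and 31.2), and Kif18a, which damps chromosome movement (121 and 52.2), had bounds between 1.16-fold and 1.43-fold. Kif2c, encoding the depolymerase MCAK, differed by probe set. Its chosen probe set read 136 and 133 (ratio -0.03), and its other 2 read 228 and 14.3, and 198 and 36.9, with bounds at -1.14 and -0.93. Kif22, a chromosome-arm motor, had the highest ratio of the list, 0.83 (1677 and 2985), but its other probe sets had -0.58 and -1.25. Kif20a, a kinesin of the central spindle, read under the floor at both ages (86.5 and 88.3).

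Spindle assembly factors lay close together, from -1.04 to -0.81 over 4 measured genes of 5, with 1 at 2-fold. Aspm, which organises spindle poles, read 370 and 179 (2.06-fold lower), with its other measured probe set level at 137 and 137. Nusap1, which bundles spindle microtubules, read 507 and 259 (-0.97), and Hmmr, a spindle-pole protein, read 275 and 157 (-0.81). Tpx2, which activates Aurora A, read 257 and 139 (-0.89), and its 4 probe sets ran from -1.38 to 0.82. Dlgap5, a microtubule binder of the spindle, was under the floor at both ages (18.6 and 43.3).

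Condensin, the ring complex that compacts chromosomes, had a ratio below 0 in all 4 measured genes of 5, and 2 of these were 2-fold lower. Ncaph read 859 and 270 (3.18-fold lower), with its second probe set at -1.57. Smc2, a core ATPase subunit, read 818 and 303 (2.70-fold lower), and its 3 measured probe sets ranged from -1.87 to -1.22. Smc4, its partner, read 1521 and 947 with a ratio of -0.68 on the chosen probe set, and its other probe sets had -1.34 and -1.58. Both SMC subunits had probe sets beyond 2-fold. Of the other condensin I subunits, Ncapd2 read 374 and 290 (-0.36), and Ncapg was under the floor at both ages (81.5 and 61.7).

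Among genes of anaphase and mitotic exit 5 of 7 were 2-fold lower, with a median of -1.21. Ube2c, the ubiquitin-conjugating enzyme of the anaphase-promoting complex (APC/C), read 590 and 125 (4.73-fold lower). Cdc20, which activates the APC/C once the checkpoint is satisfied, read 746 and 412 (-0.85), with its other probe sets at -0.90 and -1.12. Espl1, encoding separase that cuts cohesin, read 362 and 151 (2.40-fold lower). Ube2c and Espl1 had 1 measured probe set each. All 3 of Cdc20 were below 0, but that at 193 and 14.2 was above the floor at P7 only. Cdca5, encoding sororin that protects cohesin, read 521 and 243 (2.14-fold lower). Cdca3, linked to the destruction of the inhibitory kinase WEE1, read 787 and 292 (2.69-fold lower), with a dim probe set at 0.03. Cdca2, a phosphatase partner on anaphase chromosomes, read 240 and 88.9 and was at least 2.31-fold lower. Pttg1, encoding securin that holds separase inactive, went the other way, at 8257 and 12570 (ratio 0.61). Its second probe set, at 750 and 1785, had a ratio of 1.25, and the third, at 110 and 59.9, was above the floor at P7 alone.

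Cytokinesis genes were divided. Ect2, the RhoA activator that starts the cleavage furrow, read 344 and 42.5 and was at least 3.32-fold lower. Prc1, which bundles the central spindle, read 314 and 161 (-0.96), with its other probe set at -0.97. Racgap1, of the centralspindlin complex that recruits ECT2, read 261 and 336 (0.37) on the chosen probe set and 419 and 167 (-1.33) on the other. Anln, encoding anillin of the contractile ring, read 161 and 233 (0.54), its other probe set being under the floor at both ages.

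**Figure D3:**
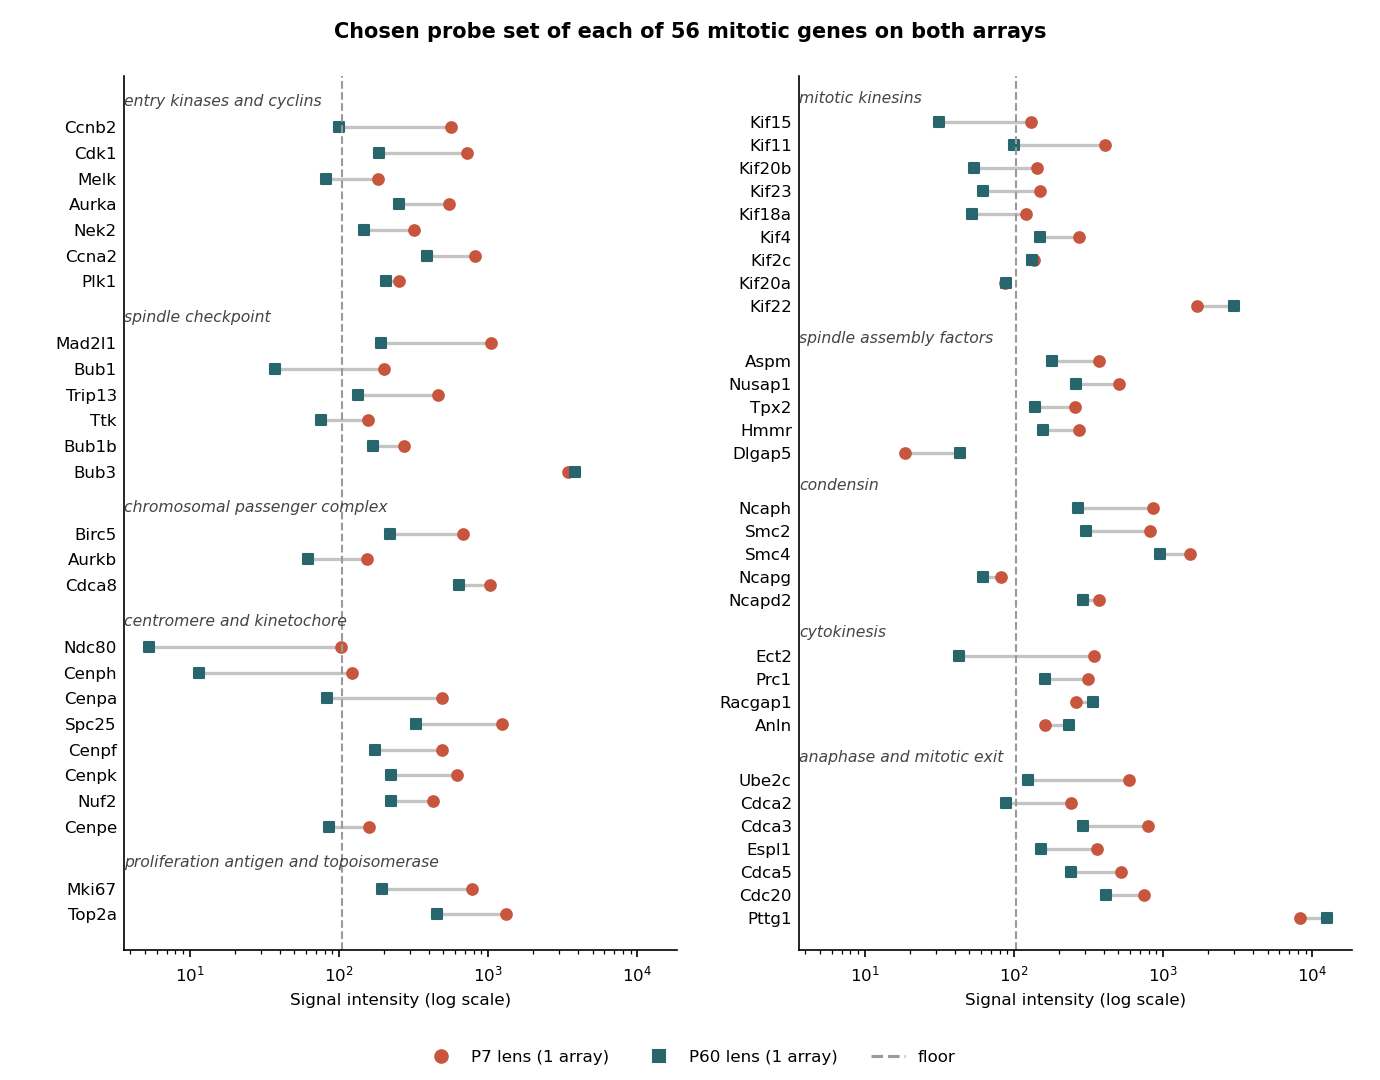
Signal intensity (log scale) of the chosen probe set of each of the 56 genes at P7 (circles) and P60 (squares), by role, with 1 array per age and no error bars because there are no replicates; the dashed line is the floor of 104. In 47 of the 52 measured genes the P60 square lies left of the P7 circle, and Pttg1, Kif22, Bub3, Racgap1 and Anln are the 5 exceptions.

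The 5 genes with a ratio above 0 were Bub3, Kif22, Racgap1, Anln and Pttg1. Other probe sets of these genes differed in direction: for Kif22 and Racgap1 another probe set was more than 2-fold lower, for Anln only 1 was measured, and for Bub3 and Pttg1 a second probe set was more than 2-fold higher. Over the whole list 132 probe sets carried a member's symbol and 89 were above the floor on at least 1 array, of which 78 had a ratio below 0, 36 were 2-fold lower and 3 were 2-fold higher (in Bub3, Nek2 and Pttg1). Of the 25 genes with 2 or more measured probe sets, 17 had every one below 0, 7 had probe sets on both sides of 0 and 1, Bub3, had every one above 0. Probe sets above the floor at P7 only, as in Kif11, Bub1 and Aurkb, could lie only below 0, so these counts are descriptions. The share over all probe sets was not counted. In 13 of the 25 the probe sets of a gene differed by more than 1 on the log2 scale. Names of Affymetrix probe sets ending in _s_at or _x_at mark probes that can also match other transcripts, and 11 of the chosen probe sets are of this kind. Of these, 8 had a ratio below 0 (Nek2, Trip13, Aurkb, Cdca8, Kif2c, Ncaph, Prc1 and Cdc20) and 3 above 0 (Kif22, Bub3 and Pttg1).

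**Figure D4:**
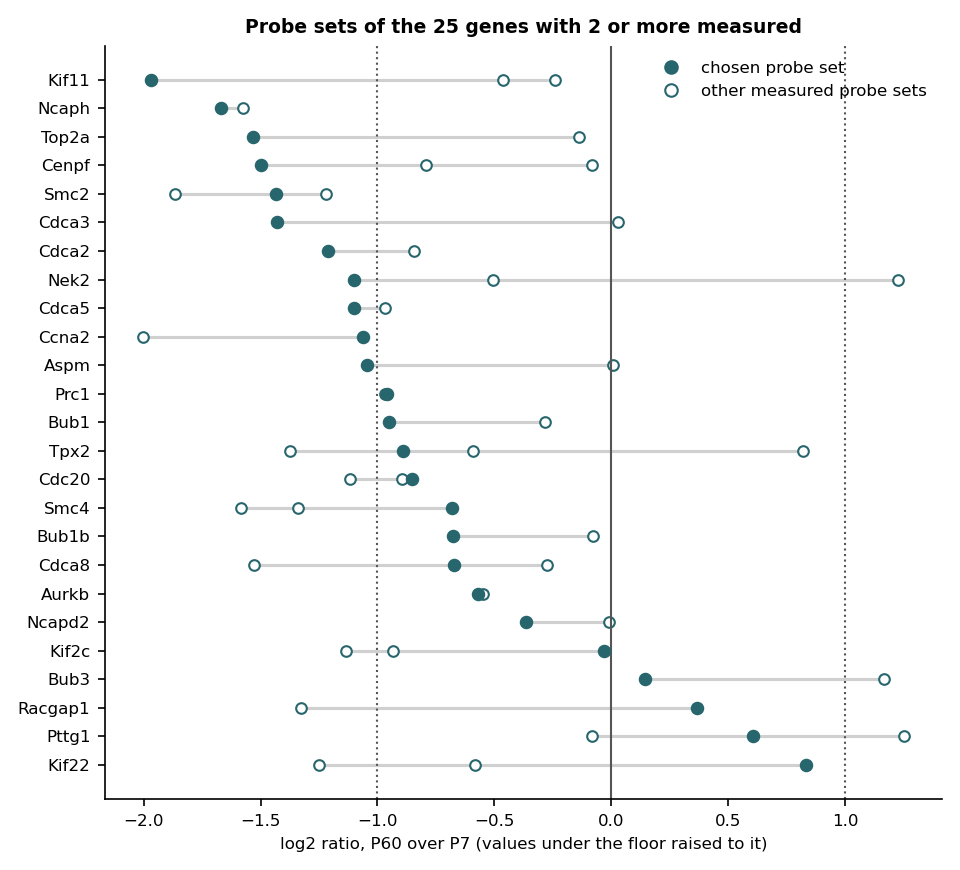
The log2 ratio of P60 over P7 for every measured probe set of the 25 genes with 2 or more, ordered by the chosen probe set (filled; others open); dotted lines mark 2-fold and the solid line no difference. Kif22, Racgap1, Tpx2 and Nek2 have probe sets on opposite sides of 0, whereas both Ncaph probe sets and all 3 of Smc2 lie beyond 2-fold on the lower side.

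Other genes of the mitotic machinery, 135 in 6 lists, were lower less far. Of 122 measured, 24 (19.7%) were 2-fold lower and 6 higher, with a median log2 ratio of -0.32, beside the 9.44% and 0.02 of all measured genes. The 24 include genes above the floor at P7 only, such as Kntc1, Cep55, Ccnf and Fbxo5, which could differ in no other direction. No count was made over those above the floor on both arrays alone, so these counts are descriptions. The difference between these lists and the 56 genes was not tested. Ccnb1 had no probe set of its own and is not among those measured.

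Among other kinetochore and centromere genes 9 of 33 were 2-fold lower and 1 higher (median -0.42). Mis18a, which helps load CENP-A, read 607 and 145 (4.18-fold lower), and Zwilch, of the RZZ checkpoint complex, read 459 and 171 (2.68-fold lower). Cenpb, which binds centromeric satellite DNA, was 2.28-fold higher (207 and 473), and Pmf1, of the MIS12 complex, had a ratio of 0.92. Among other spindle, centrosome and cytokinesis genes 5 of 30 were lower and 2 higher (median -0.23). Shcbp1 read 411 and 91.0, at least 3.96-fold lower, and Haus3, of the augmin complex, was 3.64-fold lower. Haus7, of the same complex, was 2.94-fold higher (1850 and 5433), and Numa1, a spindle-pole anchor, read 1524 and 3390, 2.22-fold higher, with another probe set at -0.12.

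Of other mitotic kinases and regulators 4 of 16 were lower and 1 higher (median -0.51). Cks2, a small partner of cyclin-dependent kinases, read 2482 and 358 and was 6.94-fold lower, and a second probe set had a ratio of -3.19. Pbk, a mitotic kinase, was 2.18-fold lower. Wee1, the kinase that restrains CDK1, was 2.80-fold higher (342 and 956), and Ncapd3 of condensin II had a ratio of 0.60.

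Cohesin, the APC/C and the factors that act on the promoter elements were listed separately, because they also work outside mitosis. Of 11 measured cohesin genes none was 2-fold lower and 1 was higher (median -0.32). Pds5b was 2.05-fold higher and its relative Pds5a had -0.83, while Stag1 and Stag2, alternative subunits bound to the ring, had -0.78 and 0.31. Of 16 APC/C genes 3 were lower and none higher (median -0.16). The APC/C inhibitor gene Fbxo5, encoding EMI1, read 332 and 68.3, at least 3.20-fold lower, and Anapc10 was 2.26-fold lower, while Anapc7 and Anapc13 had ratios of 0.43 and 0.46. Among the 16 factors that act on CHR and NF-Y elements 3 were lower and 1 higher (median -0.36). Tfdp1, the E2F partner DP1, read 2188 and 830 (2.64-fold lower), and the NF-Y subunit gene Nfyb was 2.27-fold lower, its second probe set having -0.08. Rbl2, which encodes the pocket protein p130 of DREAM, was 2.31-fold higher (389 and 901, other probe set 0.27). E2f4, the E2F partner of p130 in resting cells, read 85.4 and 160, at least 1.54-fold higher. Being above the floor at P60 only, E2f4 could lie only on the higher side. Foxm1 and Mybl2, the gene of B-Myb, are outside the naming rule and were chosen after their values were seen. Their directions cannot be set against each other. That of Foxm1 was fixed by the floor, and both ratios of Mybl2 were smaller than the probe-set SD of 0.58. Foxm1 read 210 and 93.4, at least 2.02-fold lower. Being above the floor at P7 only, Foxm1 could lie only on the lower side, and a dimmer probe set of this gene gave -0.59. Mybl2 was not lower: it read 166 and 193, and its 2 measured probe sets gave ratios of 0.22 and 0.17.

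**Figure D5:**
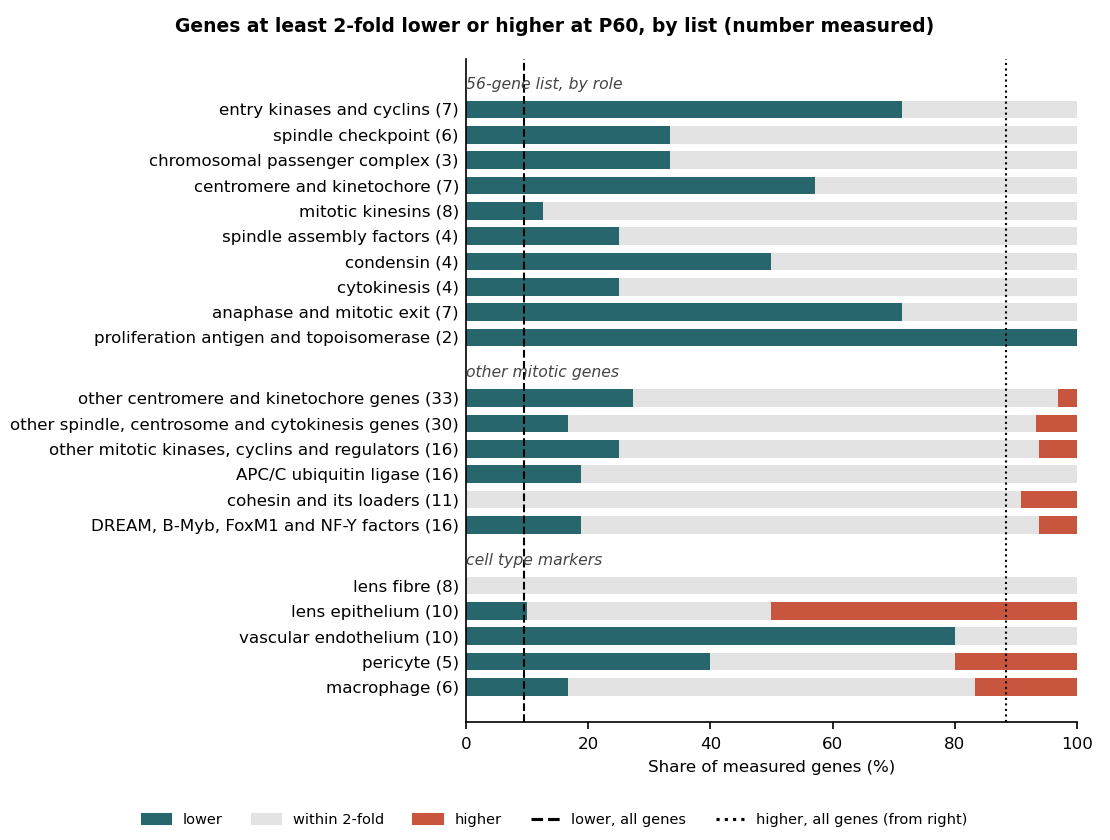
Share of measured genes at least 2-fold lower (left, dark) and higher (right, red) at P60 in each role group of the 56 genes, in 6 lists of other mitotic genes and in marker lists of cell types, with the number measured in brackets; dashed and dotted lines give the shares of all measured genes, 9.44% lower and 11.5% higher. Role groups of the list have no gene at 2-fold on the higher side, and of the marker lists the vascular endothelium has the largest lower share, 8 of 10; the 2 measured erythroid genes are not drawn.

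Markers of vascular endothelium were lower beside the mitotic genes, whereas those of pericytes differed in direction. Of 10 measured markers of vascular endothelium, cells of the hyaloid vessels that surround the young lens and regress after birth, 8 were 2-fold lower and none higher (median -1.69). Their summed intensity was 4969 at P7 and 1178 at P60, and Cldn5, a tight junction gene, read 1086 and 70.4, at least 10.5-fold lower. Of the 8, Cldn5, Cdh5, Tek, Esam, Emcn and Robo4 were above the floor at P7 only and could differ in no other direction. Kdr and Eng were above it on both arrays. Pericyte markers summed to 10937 and 6155, but most of the P7 sum was Rgs5 and most of the P60 sum Pdgfrb. Rgs5 was 85.9-fold lower (8935 and 104, level with the floor) and Pdgfrb 9.72-fold higher (561 and 5451). Notch3 was 3.85-fold lower, with another probe set at -0.88. Abcc9 had a ratio of -0.09, and Kcnj8, above the floor at P7 only, had -0.69. Macrophage markers summed to 1247 and 1174, and both measured globin genes were under the floor at P60 (178.8 and 18.9 for Hba-a2, 173 and 5.96 for Hbb-b2). Vessel cells can divide, and their part in the lower mitotic signals was not tested. Markers of the lens epithelium, where lens cells divide, did not go down together: 5 of 10 were 2-fold higher and 1 lower (median 1.02), and their summed intensity was 117299 at P7 and 165143 at P60. Cryab alone read 86292 and 97477, so most of this sum is 1 crystallin gene. Cdh1, encoding E-cadherin, was 2.73-fold higher (2869 and 7843), while the epithelial transcription factor gene Foxe3 was 2.61-fold lower (288 and 110).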

How the data were processed

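RNA from 1 pool of lenses per age was hybridised to 1 mouse Affymetrix array each. The authors deposited linear-scale signal intensities, made with MAS5, per the submitters' processing notes. Its version and settings were not given in the sources used here, nor were detection calls. The 2% trimmed means of the arrays were equal (500.0).

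Of 45101 probe sets 34958 had 1 symbol in the platform annotation, 932 several and 9211 none. Each gene was read from its brightest probe set by mean log2 intensity. The floor, the 2-fold threshold and the log2 ratio are described with the results. The calculation was tested on simulated data with changes planted only in genes far above the floor, so changes near it were not covered. Every member is reported, with the 2 lowest and 2 highest genes of each other mitotic list. The members and lists were chosen with earlier results of these data known. Alternatives were other floors, a pseudocount of 32, other filters, other probe sets and other scalings. Python 3.11.15, numpy 2.4.6 and pandas 2.3.3 were used. Promoters are from RefSeq, and figures were drawn with matplotlib 3.10.9.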

Additional observations from a re-analysis of the deposited data

How the results depend on the processing

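The 24 lower genes were recounted under 11 alternative settings, 10 of them planned and 1, without probe sets ending in _s_at or _x_at, chosen after seeing the data. The count ran from 18 (floor doubled, 41 genes measured) to 34 (no floor and no filter), and 11 genes were 2-fold lower under each of the settings, namely Aurka, Birc5, Ccna2, Cdk1, Cenpk, Mad2l1, Mki67, Ncaph, Smc2, Spc25 and Ube2c. Of these only Ccna2, Ncaph and Smc2 had more than 1 measured probe set, so settings that change the probe set could not alter the others. The median log2 ratio of -0.96 became -1.11 with a floor of 52.0, -1.13 with neither floor nor filter, -1.04 with genes above the floor on both arrays only, -0.85 with the dimmest measured probe set of each gene and -0.83 with the mean of probe sets. The count of higher genes, 0, became 1 without floor and filter (Dlgap5), 1 with the dimmest probe sets (Bub3) and 3 without _s_at and _x_at probe sets (Bub3, Nek2 and Pttg1). Aspm (0.00729) and Cdca3 (0.0307) turned above 0 with the dimmest probe set, and Nek2 (1.23) without the _s_at and _x_at probe sets. Each of these reversals, in genes counted as lower, comes from a different probe set of the gene. With the dimmest probe set Kif22 (-1.25), Racgap1 (-1.33) and Pttg1 (-0.08) turned below 0. Kif22 (-0.33) and Racgap1 (-0.48) also did so with the mean of probe sets, and Kif22 (-1.25) without _s_at and _x_at probe sets. Kif2c (0.17) turned above 0 with quantile normalization. Of 542 alternative values of single genes, 485 lay within the probe-set SD of 0.58 of the reported value. Many of the 542 could not move. Of the 52 genes 27 had 1 measured probe set, and the ratio of a gene above each floor tried does not depend on the floor. The 485 are therefore a description. No paired analysis was possible because each age has 1 array, and no array could be left out. Signals near the floor limit the size of any fold for the 15 genes under it at P60.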
